A study of Mus musculus with 16 samples.

Results

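Oligodendrocytes wrap axons in myelin and arise from precursor cells that divide throughout life. A set of 32 genes that mark this lineage was followed in RNA sequencing of mouse hippocampus: genes of compact myelin and of mature oligodendrocytes, the transcription factors of the lineage, genes of committed and newly formed cells, and genes of the precursors. Members were taken by gene name from the deposited expression table, and the values of loci with the same name were summed. Of the 32 names, 31 had a row of their own, out of 22572 gene names in all, and those 31 all passed the filter on low values (a mean of 1 FPKM or more), as 12648 names did. FPKM is the number of fragments per kilobase of transcript, scaled to the library, so that levels of different genes can be set side by side. It holds no read number, and the depth of each library is unknown. Mobp, which encodes a small basic protein of myelin, appears only in an entry that joins it with its neighbour Rpsa, a ribosomal protein gene. That entry, at 193 to 366 FPKM, is not counted.

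The tissue came from male C57BL/6 mice in 4 groups with 4 libraries each. Mice with a knockout of Bgn (Bgn0/- in the labels, BgnKO here) drank either 15% fructose (w/v) or regular water, and wild-type (WT) mice drank the same. Treatment began at 3 months of age and lasted 6 weeks. Bgn lies on the X chromosome and encodes biglycan, a proteoglycan of the extracellular matrix. How the knockout was made and which part of Bgn it removes are not given in the sources used here. The labels do not say that libraries of a group came from separate animals, and the p-values reflect only differences among these samples, possibly technical ones. In bulk tissue, fewer cells of a type and less RNA per cell cannot be told apart.

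Precursors carry the receptor for platelet-derived growth factor and, on leaving the cell cycle, pass through a short committed stage before they make myelin. OLIG and SOX10 factors act through the lineage, and MYRF switches on the genes of myelin proteins and lipids. The hippocampus holds myelinated fibres mainly in its white matter tracts, so its content of myelin RNA also depends on where the tissue is cut.

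The genes that define the lineage were all expressed. Mbp, which encodes the basic protein that packs the inner faces of the myelin membrane, had the highest level, a mean of 1466 FPKM over 16 libraries, and Enpp6 the lowest, 2.27 FPKM.

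Promoter sequences of 4 members are shown because these genes stand for the mature and the precursor stage. Cnp, Cldn11 and Mog are the myelin membrane genes with the smallest p in BgnKO fructose against BgnKO water among those with a sequence, and Pdgfra encodes the precursor receptor. Each run gives the 250 bases before the RefSeq start of the gene (GRCm38.p6, the assembly of mm10), 5′ to 3′ on the gene's own strand, at chr11:100574689-100574938 (plus strand) for Cnp, chr3:31149670-31149919 (plus strand) for Cldn11, chr17:37023399-37023648 (minus strand) for Mog and chr5:75152001-75152250 (plus strand) for Pdgfra. The GENCODE start differs from the RefSeq start for Cnp (100574904, inside its window) and for Pdgfra (75152292, past its window). For Pdgfra the bases just after the RefSeq start were not found in a GENCODE transcript of the gene, as they were for Cnp, Cldn11 and Mog. Capitals mark a match to ACAAAG, one of a pair of SOX core motifs.
Cnp: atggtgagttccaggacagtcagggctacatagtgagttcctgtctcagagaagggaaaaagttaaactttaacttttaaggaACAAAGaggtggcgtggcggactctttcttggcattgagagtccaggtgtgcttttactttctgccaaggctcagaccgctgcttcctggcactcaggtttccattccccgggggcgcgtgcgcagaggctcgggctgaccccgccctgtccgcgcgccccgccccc
Cldn11: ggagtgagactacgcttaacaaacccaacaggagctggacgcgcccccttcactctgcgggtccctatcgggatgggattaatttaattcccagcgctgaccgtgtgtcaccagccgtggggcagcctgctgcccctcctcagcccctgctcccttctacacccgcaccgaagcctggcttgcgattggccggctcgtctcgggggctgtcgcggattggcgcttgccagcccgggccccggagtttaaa
Mog: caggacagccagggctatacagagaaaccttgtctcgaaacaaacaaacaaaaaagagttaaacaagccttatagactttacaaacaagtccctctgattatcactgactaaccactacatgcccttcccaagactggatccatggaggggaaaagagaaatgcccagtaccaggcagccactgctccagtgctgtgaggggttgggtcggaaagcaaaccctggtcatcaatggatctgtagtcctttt
Pdgfra: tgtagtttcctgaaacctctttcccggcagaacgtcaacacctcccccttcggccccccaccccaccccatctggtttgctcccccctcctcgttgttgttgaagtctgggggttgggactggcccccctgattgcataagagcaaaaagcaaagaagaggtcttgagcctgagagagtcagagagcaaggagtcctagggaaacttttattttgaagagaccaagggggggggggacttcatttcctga
The motifs searched, on both strands, were the SOX cores ACAAAG and ACAATG, the E-box CAGCTG, which is its own reverse complement, and TATAAA. Of these, the 4 windows hold 1 match, the ACAAAG that lies 167 bases before the Cnp start. Windows were found for 20 members, and 10 of their 28 windows hold at least one SOX core, as do 25.2% of the 32851 promoter windows of the same length in the table. Singly, ACAAAG is in 16.5% of all windows, ACAATG in 10.7%, CAGCTG in 13.0% and TATAAA in 12.4%. A match is a string of letters and not a site.

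**Figure D1:**
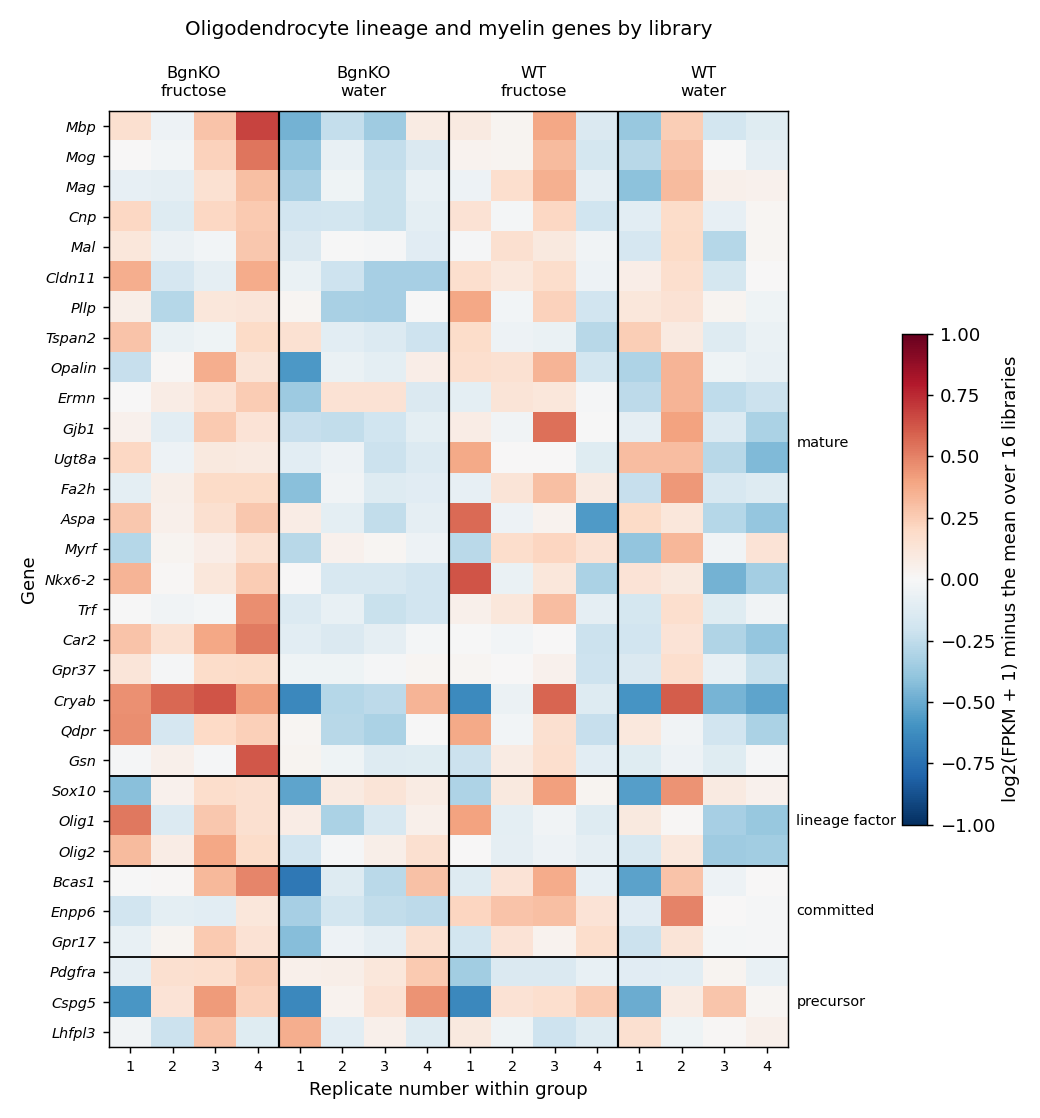
Each cell is a library's log2(FPKM + 1) of a member minus that gene's mean over 16 libraries, with genes in rows by stage and libraries in columns by group. The fourth BgnKO fructose column lies above the mean in all 22 mature genes, and Myrf, Sox10 and Cspg5 are lowest in the first column of every group.

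Replicate 1 of each group stood apart from the other libraries in part of the set. Sox10 held 16.6 to 19.9 FPKM in the replicate 1 libraries and 25.4 to 34.2 FPKM in the other 12. Myrf held 10.9 to 11.98 FPKM against 14.1 to 18.7 FPKM, and Cspg5, a proteoglycan of precursors that neurons also make, 159 to 176 FPKM against 251 to 339 FPKM. These 3 of the 31 members lay wholly below in replicate 1, as 7.28% of all tested genes did, and 0 members lay wholly above, against 13.8% of all tested genes. For Cspg5 a second locus, on the opposite strand as inferred from neighbouring loci, was part of the difference. That locus held 5.26 to 7.41 FPKM in replicate 1 and 54.0 to 76.2 FPKM in the others. The library labelled WT fructose replicate 1 held 5.42 FPKM of Bgn. That is inside the range of the 8 BgnKO libraries (5.02 to 7.11 FPKM on fructose and 4.46 to 7.60 FPKM on water) and under the other WT libraries (17.2 to 21.2 FPKM on fructose and 9.94 to 24.2 FPKM on water). The named folds that involve WT fructose are also given without it where it moved them by over 1.5 times.

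Fructose against water in BgnKO mice gave the members' highest median fold of the 5 comparisons, although no gene passed the threshold. Of the 31 members, 30 had a log2 fold above 0, against 51.8% of the 12648 genes tested, and the median log2 fold was 0.23, against 0.01 for all genes tested. The mature genes moved together from library to library, as given below. The signs of the members are therefore not separate results, in this or any other comparison. The 22 mature genes all lay higher on fructose, with a median log2 fold of 0.26. The 3 precursor genes had a median of 0.00. Tested with limma and adjusted over all genes, 0 of the 31 members passed an adjusted p of 0.05, and the share of all genes that passed was 0%. At an unadjusted p under 0.05 limma counted 9 members, all higher, against 6.34% of all genes that were higher and 12.9% in either direction. With the replicate number as a block that count was 15, and still 0 passed after adjustment. The share of all genes under the block is not given here, so 15 cannot be set against 6.34% or 12.9%.

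Mbp had 1602, 1387, 1749 and 2287 FPKM in BgnKO fructose, 1031, 1216, 1118 and 1514 FPKM in BgnKO water, 1524, 1464, 1871 and 1299 FPKM in WT fructose and 1105, 1701, 1263 and 1319.7 FPKM in WT water. Its BgnKO fructose libraries lay above the mean of BgnKO water, with one overlap: the fourth water library exceeded the second fructose library. The log2 fold was 0.52 (SE 0.17, adjusted p = 0.318 in limma).
Mog, a glycoprotein of the outermost myelin layer, had 29.1, 28.5, 34.2 and 42.5 FPKM in BgnKO fructose, 21.8, 27.5, 24.5 and 26.2 FPKM in BgnKO water, 29.9, 29.6, 36.5 and 25.6 FPKM in WT fructose and 23.8, 35.6, 28.98 and 27.2 FPKM in WT water. The BgnKO groups did not overlap, and the highest library of all was the fourth BgnKO fructose one. Its log2 fold was 0.40 (SE 0.14, adjusted p = 0.318 in limma).
Cnp, the cyclic nucleotide phosphodiesterase that keeps cytoplasm in the myelin sheath, had 114, 89.7, 114 and 118 FPKM in BgnKO fructose, 86.3, 86.7, 84.4 and 91.98 FPKM in BgnKO water, 109, 96.9, 114 and 85.7 FPKM in WT fructose and 91.6, 112, 92.8 and 99.7 FPKM in WT water. The BgnKO water libraries were close together and 3 of the 4 fructose libraries stood over them. The log2 fold of Cnp was 0.31 (SE 0.10, adjusted p = 0.318 in limma).
Cldn11, the claudin of myelin tight junctions, had 76.7, 52.7, 55.7 and 77.05 FPKM in BgnKO fructose, 56.6, 51.1, 46.9 and 46.8 FPKM in BgnKO water, 66.6, 63.7, 67.1 and 57.1 FPKM in WT fructose and 62.1, 66.8, 52.4 and 59.5 FPKM in WT water. Replicates 1 and 4 on fructose were high and replicates 2 and 3 lay inside the range of the water group. For Cldn11 the log2 fold was 0.36 (SE 0.12, adjusted p = 0.318 in limma).

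**Figure D2:**
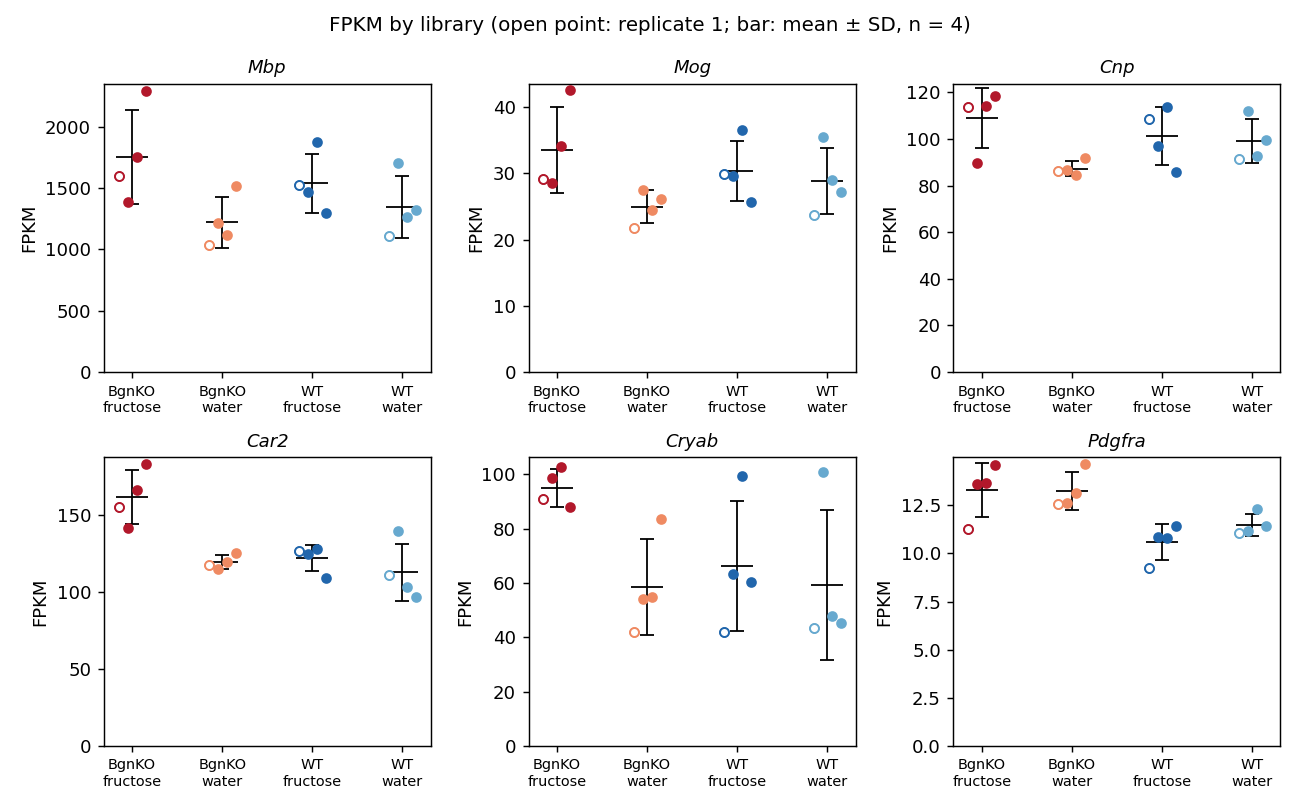
FPKM of 6 members in each library, with the bar and whiskers at the group mean ± SD (n = 4) and open points for replicate 1. Car2 and Cryab in BgnKO fructose lie above every BgnKO water library, and Pdgfra is about level between the BgnKO groups.

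The other genes of the myelin membrane, its junctions and its cytoskeleton had folds above 0 in BgnKO mice as well, from 0.14 for Mal to 0.28 for Gjb1, with no library pattern as clear.
Mag, an adhesion protein of the membrane next to the axon, averaged 61.5 ± 8.38 FPKM in BgnKO fructose, 51.98 ± 4.76 in BgnKO water, 62.6 ± 9.33 in WT fructose and 59.1 ± 11.9 in WT water libraries (SD, n = 4 each).
Mal, a raft proteolipid, averaged 127 ± 13.7 FPKM in BgnKO fructose, 114 ± 5.53 in BgnKO water, 125 ± 8.097 in WT fructose and 116 ± 17.03 in WT water libraries (SD, n = 4 each).
Pllp, the proteolipid plasmolipin, averaged 32.9 ± 4.27 FPKM in BgnKO fructose, 29.3 ± 4.09 in BgnKO water, 35.5 ± 6.42 in WT fructose and 34.1 ± 2.08 in WT water libraries (SD, n = 4 each).
In these 3 genes the BgnKO groups overlapped, and Pllp was lower in both BgnKO groups than in both WT groups by its mean.
Tspan2, a tetraspanin, averaged 31.4 ± 3.898 FPKM in BgnKO fructose, 27.9 ± 3.32 in BgnKO water, 28.4 ± 3.896 in WT fructose and 30.2 ± 3.69 in WT water libraries (SD, n = 4 each).
Opalin, a glycoprotein of oligodendrocyte loops beside the node, averaged 23.9 ± 4.24 FPKM in BgnKO fructose, 20.2 ± 3.797 in BgnKO water, 24.7 ± 3.74 in WT fructose and 22.4 ± 4.57 in WT water libraries (SD, n = 4 each).
Ermn, the cytoskeletal protein ermin, averaged 35.8 ± 2.71 FPKM in BgnKO fructose, 31.8 ± 5.45 in BgnKO water, 33.6 ± 2.62 in WT fructose and 31.05 ± 7.11 in WT water libraries (SD, n = 4 each).
In each of these 3 genes the libraries of the 4 groups overlapped.
Gjb1, a connexin that joins layers of myelin, averaged 9.06 ± 1.08 FPKM in BgnKO fructose, 7.26 ± 0.392 in BgnKO water, 9.61 ± 2.18 in WT fructose and 8.38 ± 2.13 in WT water libraries (SD, n = 4 each).
Within BgnKO water, Gjb1 was within a narrow range of 6.95 to 7.83 FPKM, and the lowest fructose library, at 7.78 FPKM, fell just inside it.

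Genes of myelin lipid synthesis and of acetate supply showed log2 folds of 0.21 to 0.28 in BgnKO mice, and 0 of these 3 genes had an unadjusted limma p under 0.05.
Ugt8a, the enzyme that makes galactocerebroside, averaged 15.7 ± 1.19 FPKM in BgnKO fructose, 13.4 ± 0.688 in BgnKO water, 15.5 ± 2.601 in WT fructose and 14.8 ± 4.199 in WT water libraries (SD, n = 4 each).
Fa2h, the hydroxylase of myelin fatty acids, averaged 19.3 ± 1.91 FPKM in BgnKO fructose, 16.03 ± 1.91 in BgnKO water, 19.7 ± 2.25 in WT fructose and 18.1 ± 4.43 in WT water libraries (SD, n = 4 each).
Aspa, which frees acetate from N-acetylaspartate, averaged 9.38 ± 0.7402 FPKM in BgnKO fructose, 7.57 ± 0.7803 in BgnKO water, 8.43 ± 3.03 in WT fructose and 7.66 ± 1.71 in WT water libraries (SD, n = 4 each).
All 4 fructose libraries of each of these genes lay above the BgnKO water mean, but the groups overlapped.

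Among the other genes high in mature oligodendrocytes, Car2 and Cryab stood out. Car2 encodes a cytosolic carbonic anhydrase that choroid plexus epithelium also makes (chr3:14886273-14900770, plus strand). It had 155, 142, 166 and 183 FPKM in BgnKO fructose, 118, 115, 119.6 and 125 FPKM in BgnKO water, 127, 125, 128 and 109 FPKM in WT fructose and 111, 139, 103 and 96.8 FPKM in WT water. Every BgnKO fructose library lay above every other library, while BgnKO water and WT overlapped. Its log2 fold in BgnKO fructose against BgnKO water was 0.43 (SE 0.10, adjusted p = 0.318 in limma).
Cryab, a small heat shock chaperone that astrocytes also make, had 90.8, 98.5, 103 and 87.8 FPKM in BgnKO fructose, 41.9, 54.00, 54.97 and 83.7 FPKM in BgnKO water, 42.1, 63.3, 99.5 and 60.2 FPKM in WT fructose and 43.6, 101, 47.7 and 45.4 FPKM in WT water. The BgnKO groups did not overlap, and single libraries in WT fructose and WT water were as high as BgnKO fructose. Its log2 fold was 0.73 (SE 0.27, adjusted p = 0.322 in limma), the highest among the members.
Trf, the iron carrier transferrin, had 108, 106, 107 and 150.2 FPKM in BgnKO fructose, 98.7, 103, 93.3 and 94.9 FPKM in BgnKO water, 113, 118, 135 and 102 FPKM in WT fructose and 95.9, 122, 99.7 and 106 FPKM in WT water. All BgnKO fructose libraries were above all BgnKO water libraries, 3 of them by a small margin. Trf had a log2 fold of 0.26 (SE 0.11, adjusted p = 0.367 in limma).
Qdpr, which regenerates tetrahydrobiopterin, averaged 124 ± 21.7 FPKM in BgnKO fructose, 97.6 ± 11.96 in BgnKO water, 114 ± 20.9 in WT fructose and 99.99 ± 13.00 in WT water libraries (SD, n = 4 each).
Gpr37, a receptor of mature oligodendrocytes, averaged 29.4 ± 1.92 FPKM in BgnKO fructose, 26.5 ± 0.553 in BgnKO water, 26.3 ± 2.11 in WT fructose and 25.8 ± 3.23 in WT water libraries (SD, n = 4 each).
Gsn, the actin-severing protein gelsolin, averaged 28.9 ± 6.99 FPKM in BgnKO fructose, 24.1 ± 1.27 in BgnKO water, 25.1 ± 3.13 in WT fructose and 23.9 ± 0.921 in WT water libraries (SD, n = 4 each).
Qdpr had a log2 fold of 0.33 (SE 0.15, adjusted p = 0.373 in limma), with its second BgnKO fructose library under the BgnKO water mean, and the Gsn mean on BgnKO fructose owed its size to the fourth library, at 39.4 FPKM.

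All 5 transcription factors of the lineage had folds above 0 in BgnKO mice, with 0 called. Olig2, which sets the lineage's identity (chr16:91225457-91228677, plus strand), had 19.2, 16.1, 20.2 and 17.5 FPKM in BgnKO fructose, 13.3, 15.1, 15.9 and 17.1 FPKM in BgnKO water, 15.3, 14.3, 14.6 and 14.3 FPKM in WT fructose and 13.5, 16.4, 11.7 and 11.8 FPKM in WT water. BgnKO fructose was highest and WT water lowest by the mean, with overlap between the BgnKO groups. Its log2 fold in BgnKO fructose against BgnKO water was 0.23 (SE 0.10, adjusted p = 0.359 in limma).
Nkx6-2, a homeobox factor of mature cells, had 11.2, 8.66, 9.38 and 10.4 FPKM in BgnKO fructose, 8.61, 7.59, 7.55 and 7.397 FPKM in BgnKO water, 13.8, 8.13, 9.38 and 6.68 FPKM in WT fructose and 9.52, 9.26, 5.91 and 6.58 FPKM in WT water. The BgnKO groups lay apart by a narrow margin, and WT fructose spread over both. Its log2 fold was 0.31 (SE 0.17, adjusted p = 0.463 in limma).
Olig1, the partner of Olig2, averaged 73.1 ± 13.9 FPKM in BgnKO fructose, 59.2 ± 7.596 in BgnKO water, 64.8 ± 12.1 in WT fructose and 56.8 ± 9.61 in WT water libraries (SD, n = 4 each).
Sox10, the SOX factor of the lineage, averaged 24.95 ± 4.59 FPKM in BgnKO fructose, 24.2 ± 4.89 in BgnKO water, 26.3 ± 5.54 in WT fructose and 25.7 ± 7.204 in WT water libraries (SD, n = 4 each).
Myrf, the regulator of myelin genes, averaged 14.6 ± 1.97 FPKM in BgnKO fructose, 13.97 ± 1.45 in BgnKO water, 15.5 ± 2.37 in WT fructose and 14.98 ± 3.28 in WT water libraries (SD, n = 4 each).
For Sox10 and Myrf the log2 folds in BgnKO mice were 0.05 (SE 0.21) and 0.06 (SE 0.15), the smallest outside the precursor genes, and replicate 1 was the lowest library of every group.

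Committed and newly formed cells are marked by Bcas1, Enpp6 and Gpr17. Bcas1, which newly formed and early myelinating cells express, had 76.7, 77.4, 96.3 and 108 FPKM in BgnKO fructose, 46.5, 70.2, 63.7 and 94.6 FPKM in BgnKO water, 70.3, 84.7, 99.7 and 72.5 FPKM in WT fructose and 52.8, 93.8, 74.1 and 76.9 FPKM in WT water. The BgnKO groups overlapped by the fourth water library, and the log2 fold was 0.41 (SE 0.20, adjusted p = 0.409 in limma).
Gpr17, a receptor of committed precursors, averaged 13.5 ± 1.47 FPKM in BgnKO fructose, 11.8 ± 2.07 in BgnKO water, 13.01 ± 1.505 in WT fructose and 12.3 ± 1.301 in WT water libraries (SD, n = 4 each).
Enpp6, a choline phosphodiesterase of newly formed cells, averaged 2.08 ± 0.287 FPKM in BgnKO fructose, 1.703 ± 0.117 in BgnKO water, 2.79 ± 0.197 in WT fructose and 2.49 ± 0.712 in WT water libraries (SD, n = 4 each).
Gpr17 and Enpp6 had log2 folds of 0.19 (SE 0.12) and 0.18 (SE 0.11) in BgnKO fructose against BgnKO water.

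The precursor genes did not share the pattern of the mature genes in these values. Pdgfra (chr5:75152292-75198215, plus strand) had 11.3, 13.6, 13.7 and 14.6 FPKM in BgnKO fructose, 12.6, 12.6, 13.1 and 14.6 FPKM in BgnKO water, 9.27, 10.8, 10.8 and 11.4 FPKM in WT fructose and 11.1, 11.1, 12.3 and 11.4 FPKM in WT water. Its BgnKO groups covered each other, and the log2 fold was 0.00 (SE 0.08, adjusted p = 0.99 in limma).
Cspg5, the precursor proteoglycan, averaged 266 ± 71.5 FPKM in BgnKO fructose, 257 ± 74.7 in BgnKO water, 252 ± 62.99 in WT fructose and 248 ± 52.7 in WT water libraries (SD, n = 4 each).
Lhfpl3, a membrane protein of precursors, averaged 8.43 ± 1.47 FPKM in BgnKO fructose, 8.86 ± 1.62 in BgnKO water, 8.06 ± 0.828 in WT fructose and 8.79 ± 0.591 in WT water libraries (SD, n = 4 each).
Cspg5 and Lhfpl3 had log2 folds of 0.06 (SE 0.26) and -0.06 (SE 0.12) in BgnKO fructose against BgnKO water, smaller than their standard errors. The difference between mature and precursor genes was not tested.

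Libraries of 5 members did not overlap in this comparison: Mog, Nkx6-2, Trf, Car2 and Cryab, all higher on fructose, against 1.88% of all genes that lay wholly above. Leaving out a library raised that count in some cases, to 15 without BgnKO fructose replicate 2 and 11 without BgnKO water replicate 4. It was 9 without BgnKO water replicate 1 and 8 without BgnKO water replicate 2. Leaving out a library can only keep or raise such a count in any set of genes. The share of all genes at these settings is not given here, so 1.88% is no measure for these counts. The members' median log2 fold was 0.21 to 0.28 when each BgnKO library was left out in turn. It was 0.23 in replicates 2 to 4 alone. The combined Mobp and Rpsa entry held 314, 249, 299.6 and 366 FPKM in BgnKO fructose, 193, 215, 206 and 294 FPKM in BgnKO water, 274, 282, 353 and 273 FPKM in WT fructose and 228, 309, 247 and 274 FPKM in WT water, with the share of each gene unknown.

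A list of 32 further mature oligodendrocyte and myelin genes, not members, had 30 tested. Of these, 26 had folds above 0 in BgnKO fructose against BgnKO water (median 0.17), against 51.8% of all genes. Limma called 0 after adjustment, as of all genes. At an unadjusted p under 0.05 it counted 6, all higher, against 6.34% of all genes that were higher and 12.9% in either direction. Of 19 tested further precursor and committed genes, 11 had folds above 0, with a median of 0.02. At an unadjusted p under 0.05 limma counted 1 of these 19, as higher.

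Markers of some other cell types lay higher in the same comparison, and those of others did not. Folds were above 0 for all 5 endothelial and all 4 ependymal markers and for 3 of 8 meningeal markers. They were above 0 for 3 of 7 markers of hippocampal regions, 1 of 5 striatal and 2 of 5 thalamic markers. All 13 astrocyte markers had folds above 0 (median 0.21), as did all 12 microglia markers (median 0.29) and all 9 choroid plexus markers (median 0.55), while 2 of 10 neuron markers did (median -0.16). None of these lists had a member called by limma after adjustment. At an unadjusted p under 0.05 limma counted 3 astrocyte, 2 microglia and 0 choroid plexus markers as higher, against 6.34% of all genes. It counted 3 neuron markers, 1 of hippocampal regions and 2 striatal markers as lower, against 828 of the 12648 genes tested. The summed FPKM of the astrocyte list was 1690.1 to 2301 in BgnKO fructose and 1512 to 2214 in BgnKO water. The microglia sum was 285 to 373 FPKM in BgnKO fructose and 200.2 to 368 FPKM in BgnKO water. The choroid plexus sum was 2639 to 9186 FPKM in BgnKO fructose and 802 to 6279 FPKM in BgnKO water. The neuron sum was 2753 to 3500.3 FPKM in BgnKO fructose and 3155 to 3642 FPKM in BgnKO water. All of these ranges overlap between the groups. Their part in the myelin values was not tested.

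By library, the median deviation of the 22 mature genes from their own means was highest in BgnKO fructose replicate 4, at 0.26 on the log2 scale, with 22 of 22 genes above their mean. WT fructose replicate 3, at 0.19, and WT water replicate 2, at 0.19, followed, with 21 and 20 genes above. The lowest was BgnKO water replicate 3, at -0.21. BgnKO fructose replicates 1, 2 and 3 lay at 0.12, -0.03 and 0.16, with 16, 9 and 17 genes above. BgnKO fructose replicate 4 also had the highest sums of astrocyte (2301 FPKM), microglia (373 FPKM), choroid plexus (9186 FPKM), ependymal (56.2 FPKM) and meningeal (342 FPKM) markers of all 16 libraries, and the lowest sum of neuron markers (2753 FPKM). Without it, the members' median log2 fold in BgnKO fructose against BgnKO water was 0.21.

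**Figure D3:**
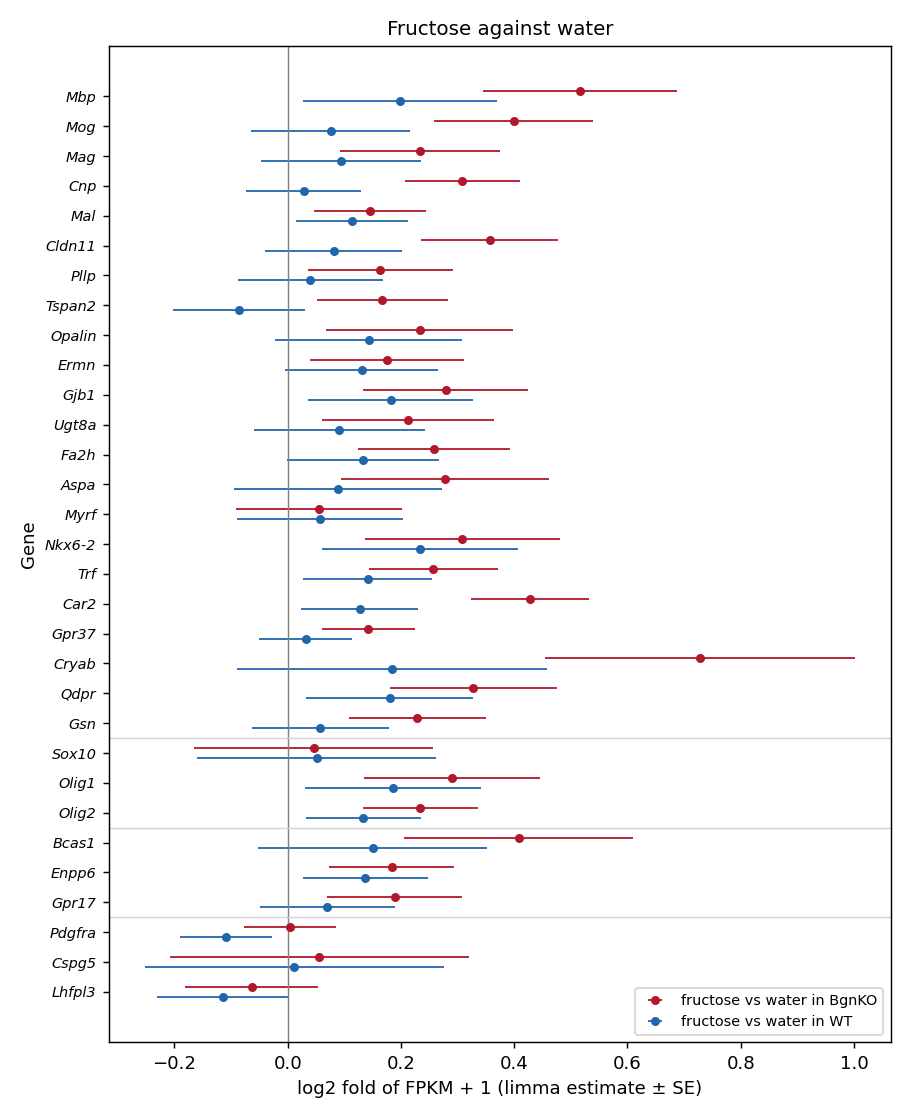
Points are the limma log2 folds of fructose against water for each member, with bars of 1 SE, in BgnKO and in WT mice. Mature genes in BgnKO mice lie to the right of 0 with a median of 0.26, the mature genes in WT mice have a median of 0.10, and the 3 precursor genes at the bottom lie near 0 or below.

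Fructose against water in WT mice gave smaller values. Of the 31 members, 28 had a log2 fold above 0, against 54.3% of all genes, with a median of 0.09 for the members and 0.01 for all genes. Limma called 0 members, against 0.00791% of all genes, and 0 members had an unadjusted p under 0.05, against 2.08% of all genes in either direction and 1.37% as higher. With the replicate number as a block both member counts were 0 as well. The libraries of the 2 groups lay apart in 0 members, against 1.09% of all genes that lay wholly above and 0.783% wholly below. The mature genes had a median log2 fold of 0.10 and the precursor genes one of -0.11.
With all libraries, Nkx6-2 had the highest log2 fold, 0.23 (SE 0.17), which was 0.05 without the library labelled WT fructose replicate 1. Mbp had 0.20 (SE 0.17), Fa2h 0.13 (SE 0.13), Ugt8a 0.09 (SE 0.15) and Bcas1 0.15 (SE 0.20). Without that library Ugt8a had -0.01 and Cryab, at 0.38, had the highest fold. Gjb1 had 0.18 (SE 0.15), Trf 0.14 (SE 0.11), Enpp6 0.14 (SE 0.11), Olig2 0.13 (SE 0.10) and Car2 0.13 (SE 0.10).
Pdgfra, at -0.11 (SE 0.08), Lhfpl3, at -0.11 (SE 0.12), and Tspan2, at -0.09 (SE 0.12), were the 3 below 0. With that library left out Pdgfra had -0.05 and Tspan2 -0.17, and 24 of the 31 members lay above 0. In Pdgfra all 4 WT fructose libraries, at 9.27 to 11.4 FPKM, lay below the WT water mean of 11.5 FPKM, with overlap between the groups.
The median moved with single libraries. It was 0.20 without WT water replicate 2, 0.15 without WT fructose replicate 4 and 0.06 without WT fructose replicate 3, and 0.12 when the library labelled WT fructose replicate 1 was left out. The count of members at an unadjusted p under 0.05 in limma was 6 without WT water replicate 2 and 1 without WT fructose replicate 4. It was 0 without any other single library. Shares of all genes at those settings are not given here. In the same comparison, 5 of 13 astrocyte markers, 7 of 12 microglia markers and 0 of 9 choroid plexus markers had folds above 0.

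The test of whether the fructose difference depended on genotype, the interaction, called 0 members, against 0.00791% of all genes, and 0 members had an unadjusted limma p under 0.05, against 2.91% of all genes in either direction and 1.55% as higher. Interaction values were above 0 for 29 of the 31 members, against 47.7% of all genes, with a median of 0.12. Without WT water replicate 2 the count was 22 and the median 0.05, and without WT fructose replicate 4 the median was 0.06. Members at an unadjusted p under 0.05 in limma numbered 3 without BgnKO fructose replicate 2, where the share of all genes is not given here. Cryab had 0.54 (SE 0.39), Mog 0.32 (SE 0.20), Mbp 0.32 (SE 0.24), Car2 0.30 (SE 0.15) and Cnp 0.28 (SE 0.14). Cryab had 0.35 without the library labelled WT fructose replicate 1. With adjusted p of 0.999 or 1 by limma for every member, no difference between genotypes in the fructose response was shown. The share of members with interaction values above 0 draws on the same libraries as the comparisons within each genotype.

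**Figure D4:**
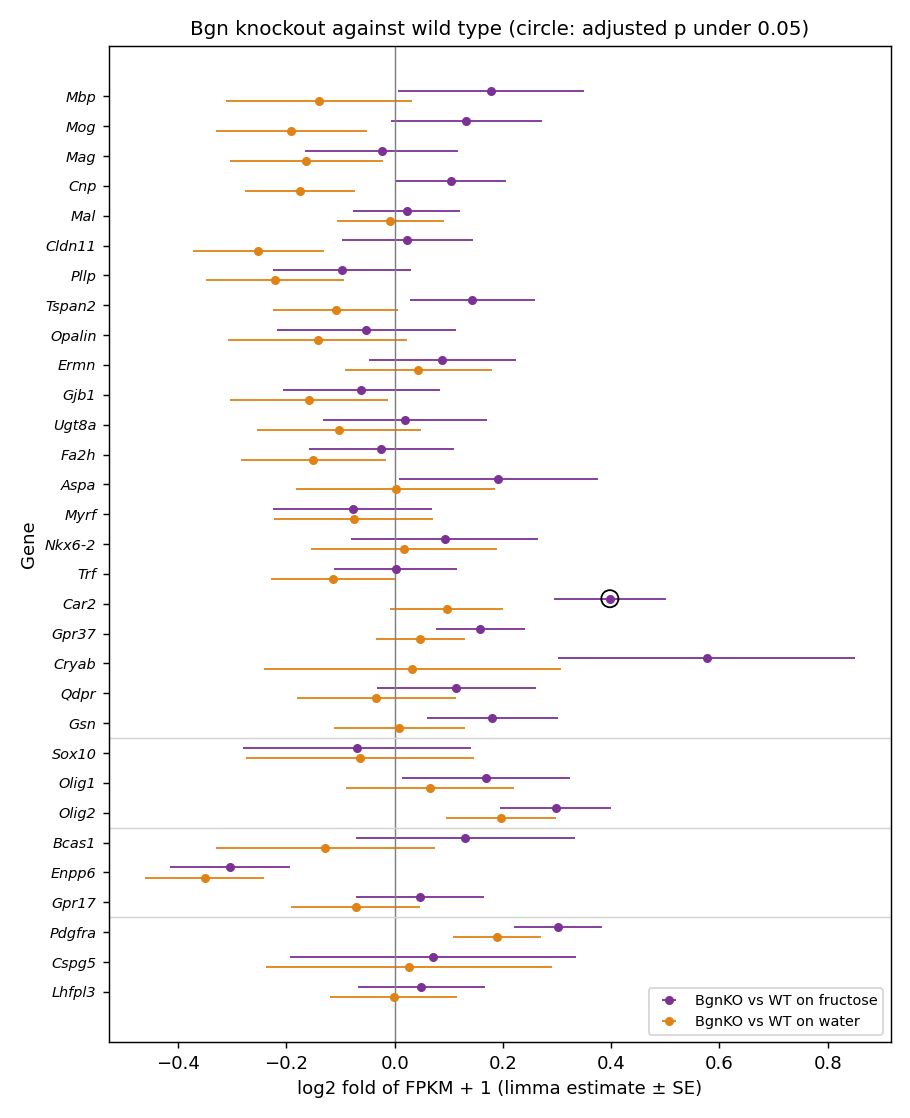
Points are the limma log2 folds of BgnKO against WT for each member, with bars of 1 SE, on fructose and on water. The circle marks Car2 on fructose, the one member with an adjusted p under 0.05, and Enpp6 lies left of 0 on both drinks.

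BgnKO against WT on fructose had the one member that passed. On fructose Car2 was higher in BgnKO than in WT mice, with a log2 fold of 0.40 (SE 0.10, adjusted p = 0.0468 in limma). Its 4 BgnKO fructose libraries (142 to 183 FPKM) lay above its 4 WT fructose libraries (109 to 128 FPKM). The call is 1 of 31 members, a share close to the 3.76% of all genes called, with 1.63% called as higher. The count is thus no result about the members as a set. The members' log2 folds were above 0 for 23 of 31, against 47.5% of all genes, with a median of 0.09. That median was 0.0279 without BgnKO fructose replicate 4 and 0.0276 without WT fructose replicate 4. At an unadjusted p under 0.05 limma counted 3 members as higher and 1 as lower, against 10.3% of all genes as higher and 21.3% in either direction. The Car2 call was lost without BgnKO fructose replicate 3 or 4, without any one of the 4 BgnKO water or the 4 WT fructose libraries, and without WT water replicate 1 or 3, with adjusted p up to 0.154. In replicates 2 to 4 alone Car2 was not called either, and Pdgfra was. It held, by limma, at 0.0425, 0.0317, 0.0218 and 0.0432 without BgnKO fructose replicate 1, BgnKO fructose replicate 2, WT water replicate 2 and WT water replicate 4 in turn.
The summed choroid plexus markers, of a tissue that also makes Car2, were 2639 to 9186 FPKM in BgnKO fructose and 232 to 4453 FPKM in WT fructose. Their part in the Car2 difference was not tested.

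Pdgfra stood just outside the threshold on fructose, with a log2 fold of 0.30 (SE 0.08, adjusted p = 0.0514 in limma). Its lowest BgnKO fructose library, 11.3 FPKM, is replicate 1, as is the lowest WT fructose library, 9.27 FPKM. The groups overlapped, as the highest WT fructose library held 11.4 FPKM. Without replicate 1 in any group, limma gave Pdgfra an adjusted p of 0.0157 with a log2 fold of 0.32. At that setting 10.9% of all genes were called, against 3.76% with all libraries. With only the library labelled WT fructose replicate 1 left out, the log2 fold was 0.24 and the adjusted p 0.107. Pdgfra was called by limma without BgnKO fructose replicate 1 (adjusted p = 0.0138) or BgnKO water replicate 4 (adjusted p = 0.0464). It was not called with any other single library left out. At those 2 settings 7.43% and 3.92% of all genes were called. Fibroblasts of the meninges also carry this receptor, and the summed meningeal markers were 70.6 to 342 FPKM in BgnKO fructose and 25.6 to 155 FPKM in WT fructose. Their part in the Pdgfra values was not tested.

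Olig2 had a log2 fold of 0.30 (SE 0.10, adjusted p = 0.11 in limma) on fructose, with BgnKO fructose at 16.1 to 20.2 FPKM and WT fructose at 14.3 to 15.3 FPKM. Enpp6, the weakly expressed marker of newly formed cells, had -0.30 (SE 0.11, adjusted p = 0.128 in limma), at 1.82 to 2.49 FPKM in BgnKO fructose and 2.54 to 2.97 FPKM in WT fructose. Neither gene's groups overlapped, and neither passed with all libraries. Enpp6 passed by limma without WT water replicate 2, a library outside this comparison, with an adjusted p of 0.0419. It passed without no other single library. The Olig2 values include a locus inferred to lie on the opposite strand, at 1.88 to 4.62 FPKM in BgnKO fructose and 1.85 to 3.49 FPKM in WT fructose. At the locus on the annotated strand alone the Olig2 groups overlapped, at 11.5 to 17.3 FPKM in BgnKO fructose and 10.9 to 13.4 FPKM in WT fructose, with a log2 fold of 0.31. With Car2, 2 members lay wholly above, against 4.61% of all genes, and 1 wholly below, against 6.43%. Cryab had 0.58 (SE 0.27, adjusted p = 0.239 in limma). With the library labelled WT fructose replicate 1 left out it had 0.38. Myelin membrane genes lay close to 0 on fructose, from -0.10 for Pllp to 0.18 for Mbp, with a median of 0.02. Without the library labelled WT fructose replicate 1 Pllp had -0.00231.
Tspan2 had a log2 fold of 0.14 (SE 0.12), Aspa 0.19 (SE 0.18), Fa2h -0.02 (SE 0.13), Olig1 0.17 (SE 0.16), Bcas1 0.13 (SE 0.20) and Lhfpl3 0.05 (SE 0.12). These values were of the size of their standard errors. Without the library labelled WT fructose replicate 1 they were 0.22 for Tspan2, 0.38 for Aspa, -0.09 for Fa2h, 0.29 for Olig1, 0.06 for Bcas1 and 0.10 for Lhfpl3, and none was called.

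Of 77 tested further genes of the lineage, 3 were called in BgnKO against WT on fructose, all among the 28 tested ligands, receptors and regulators. That share is close to the 3.76% of all genes called. Nrg1, a neuregulin that signals from axons to oligodendrocytes and Schwann cells, had 1.13, 1.67, 1.73 and 1.01 FPKM in BgnKO fructose, against 1.85, 3.31, 2.97 and 2.94 FPKM in WT fructose, with no overlap. It fell by 0.66 on the log2 scale (SE 0.14, adjusted p = 0.0227 in limma).
Bmpr1a, a receptor for bone morphogenetic proteins, which hold back differentiation of precursors, had 17.1, 16.4, 16.5 and 19.1 FPKM in BgnKO fructose, against 15.2, 12.4, 11.9 and 12.6 FPKM in WT fructose. It rose by a log2 fold of 0.39 (SE 0.09, adjusted p = 0.0307 in limma).
Id2, an inhibitor of basic helix-loop-helix factors, had 93.3, 84.2, 95.4 and 88.2 FPKM in BgnKO fructose, against 72.8, 64.3, 70.5 and 77.7 FPKM in WT fructose. Its log2 fold was 0.34 (SE 0.09, adjusted p = 0.0495 in limma), so it rose by the test. All 3 calls were lost without BgnKO fructose replicate 4 or without WT fructose replicate 2, 3 or 4. The Bmpr1a call was also lost without BgnKO fructose replicate 3. The Id2 call was also lost without BgnKO fructose replicate 1 or 3, without BgnKO water replicate 1, 2 or 3, without replicate 1 of WT fructose, and without WT water replicate 2 or 3. The lists they come from hold genes that neurons and astrocytes express as well. Astrocyte markers were higher in the same comparison, 13 of 13 with folds above 0 and 4 called (Gfap, Aqp4, Gja1 and Fgfr3), with sums of 1690.1 to 2301 FPKM in BgnKO fructose and 1525 to 1641 FPKM in WT fructose. The 10 neuron markers all had folds below 0 with 0 called, and their sums were 2753 to 3500.3 FPKM in BgnKO fructose and 3591 to 4038 FPKM in WT fructose. All 12 microglia markers had folds above 0 (median 0.35) with 0 called, and their sums were 285 to 373 FPKM in BgnKO fructose and 216 to 271 FPKM in WT fructose. Of 7 markers of hippocampal regions, 6 had folds below 0 and 2 were called lower, Wfs1 and Iyd, and the sums of the list were 130.2 to 200.04 FPKM in BgnKO fructose and 184 to 227 FPKM in WT fructose. The part of these markers in the 3 genes and in the members was not tested.

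BgnKO against WT on water called 0 members by limma, against 0.387% of all genes, and 2 members had an unadjusted p under 0.05, against 5.33% of all genes in either direction and 2.45% as higher. Of the members, 11 had a log2 fold above 0 and 20 below, against 49.4% of all genes above 0, with a median of -0.07. That count of 11 was 16 without WT water replicate 2, 6 without WT water replicate 3 and 7 without WT water replicate 4. The median was 0.000915 without WT water replicate 2, -0.03 without BgnKO water replicate 1 and -0.13 without WT water replicate 1. The myelin membrane genes lay lower in BgnKO mice for 10 of 11, with a median log2 fold of -0.16, and Ermn was the exception.
Cldn11 had -0.25 (SE 0.12, adjusted p = 0.947 in limma) and Cnp -0.18 (SE 0.10, adjusted p = 1 in limma). The Cldn11 libraries in BgnKO water, at 46.8 to 56.6 FPKM, overlapped those in WT water, at 52.4 to 66.8 FPKM.
Enpp6 had the largest difference, -0.35 (SE 0.11, adjusted p = 0.398 in limma), with no overlap between 1.56 to 1.85 FPKM in BgnKO water and 1.99 to 3.55 FPKM in WT water. Pdgfra had 0.19 (SE 0.08, adjusted p = 0.859 in limma), also without overlap, at 12.6 to 14.6 FPKM in BgnKO water and 11.1 to 12.3 FPKM in WT water. In all, 1 member lay wholly above and 1 wholly below, against 1.75% and 2.26% of all genes. On fructose, in other libraries, both had the same sign as on water.
Olig2 had 0.20 (SE 0.10), Trf -0.11 (SE 0.11), Fa2h -0.15 (SE 0.13), Ugt8a -0.10 (SE 0.15), Car2 0.10 (SE 0.10), Bcas1 -0.13 (SE 0.20), Myrf -0.08 (SE 0.15) and Cspg5 0.03 (SE 0.26) as log2 folds. Of the further mature genes, 24 of 30 had folds below 0, and of the further precursor and committed genes 15 of 19 had folds above 0, with 0 called in either list by limma and 1 and 0 at an unadjusted p under 0.05. Astrocyte markers were above 0 for 12 of 13 (median 0.11) and meningeal markers for 8 of 8 (median 0.50), with their part in these values not tested.

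The comparisons share libraries. BgnKO water enters with a minus sign in the fructose comparison and a plus sign in the knockout comparison on water, so that a low BgnKO water group gives higher fructose folds and lower knockout folds at once. The myelin membrane genes had their lowest group mean in BgnKO water for Mbp, Mog, Mag, Cnp, Mal, Cldn11, Pllp, Tspan2, Opalin and Gjb1, and their highest in BgnKO fructose for Mbp, Mog, Cnp, Mal, Cldn11, Tspan2 and Ermn.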

How the data were processed

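The values are FPKM that the authors deposited for 16 hippocampus libraries. Per the labels' protocols, polyadenylated RNA was selected and primed with random hexamers. Per the submitters' processing notes, reads were handled with TopHat, Bowtie, Cufflinks and Cuffdiff on mm10. Versions, annotation, strand setting and normalization are not given in the sources used here. Of 27670 loci, 4269 have no gene name, took 46.8 to 70.4% of the FPKM of a library and were left out. Loci of one of the 22572 names were summed. Read numbers could not be recovered from the FPKM, so no counting interval is given. No library was a copy of another: pairs differed by 0.179 to 0.560 (root mean square, log2 scale).

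Differences were tested on log2(FPKM + 1), a scale that makes changes of weakly expressed genes look smaller, with limma 3.58.1 (eBayes with a trend, R 4.3.3). The fit took all 16 libraries, 4 group means and 12648 names with a mean of at least 1 FPKM. It was tested on simulated data. Adjustment was by Benjamini-Hochberg within each of 5 comparisons, and the threshold was 0.05. For fructose against water the deviations of same-numbered libraries had correlations of 0.197 to 0.612 in BgnKO and 0.118 to 0.699 in WT. The highest were those of replicate 1, and the others reached 0.377 in BgnKO and 0.337 in WT. The labels give no reason for the numbers. The SE and p-values in the text come from the fit without pairs, except where another setting is named. A replicate block was run as an alternative. The members and lists were chosen with earlier results of these data known. In each comparison the text names called members and, in each role class, up to 2 members with the smallest unadjusted p, and up to 6 called further lineage genes. Other members are named for their levels. Positions are from GENCODE vM21 and promoters from RefSeq GRCm38.p6, matched by symbol. The strand of a locus was inferred from the most common annotated strand of up to 12 neighbouring loci on each side in the locus numbering. Alternatives were another pseudocount, filter or scaling, 1 locus per name, a replicate block, a term for replicate 1, replicates 2 to 4 alone, only the groups compared, no variance trend, and each library left out. Results for a further list of marker genes are not reported here.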

Additional observations from a re-analysis of the deposited data

Results flagged for a closer look

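In 16 of 124 tested sets of 4 libraries (a member in a group), a single library lay far from the other 3 by Dixon's test. Chance alone flags about 1 in 20 such sets when they are independent. These sets share libraries across members that move together, so the 16 cannot be read against that rate. WT water replicate 2 was the high library for Ermn (41.7 FPKM), Fa2h (24.7 FPKM), Cryab (100.7 FPKM) and Enpp6 (3.55 FPKM). BgnKO fructose replicate 4 was high for Trf (150.2 FPKM) and Gsn (39.4 FPKM), and BgnKO fructose replicate 2 was low for Cnp (89.7 FPKM) and Pllp (26.6 FPKM). WT fructose replicate 3 was high for Gjb1 (12.8 FPKM), and WT fructose replicate 4 was low for Car2 (109.3 FPKM) and Gpr37 (23.2 FPKM). The remaining 5 are replicate 1 libraries. The library labelled WT fructose replicate 1 was low for Myrf (11.98 FPKM) and Cspg5 (158.9 FPKM) and high for Olig1 (82.8 FPKM). BgnKO water replicate 1 was low for Sox10 (16.9 FPKM) and high for Nkx6-2 (8.61 FPKM).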

How the results depend on the processing

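The number of members called stayed at 0 in both fructose comparisons, in BgnKO against WT on water and in the interaction under every setting run. In BgnKO against WT on fructose it was 1, with 0 when no filter was used or only the groups compared were fitted, 2 with a term for replicate 1, 3 with the replicate block, and 0 to 2 with a library left out. It was also 1 in replicates 2 to 4 alone, where the member called was Pdgfra and not Car2. With the block, under which limma called Car2, Pdgfra and Enpp6, the calls over all genes were 2483 instead of 475, 2190 with the term for replicate 1, 1377 in replicates 2 to 4, 87 with only the groups compared and 147 to 940 with a library left out. Same-numbered correlations between genotypes were 0.0868 to 0.750 on fructose and -0.0402 to 0.689 on water, with replicate 1 the highest of each. They cannot settle whether the numbers pair libraries there, and the labels give no reason for the numbers. The count of members above 0 in BgnKO against WT on water was 6 to 16 with a library left out. Other settings turned a sign as follows: Lhfpl3 in BgnKO fructose against water to 0.046 in replicates 2 to 4, Cspg5 there to -0.018 and Mbp in BgnKO against WT on fructose to -0.13 with quantile normalization, and Ugt8a in BgnKO against WT on water to 0.00307 in replicates 2 to 4. With a library left out, folds that crossed 0 ranged as follows. In BgnKO fructose against water, Lhfpl3 ranged from -0.16 to 0.042 and Cspg5 from -0.16 to 0.27. In WT fructose against water, Ugt8a ranged from -0.048 to 0.20 and Bcas1 from -0.00271 to 0.27. In BgnKO against WT on water, Fa2h ranged from -0.22 to 0.000915, Ugt8a from -0.24 to 0.00930, Myrf from -0.21 to 0.032, Bcas1 from -0.29 to 0.042 and Cspg5 from -0.13 to 0.24. In BgnKO against WT on fructose, Fa2h ranged from -0.089 to 0.039 and Lhfpl3 from -0.052 to 0.11. In the interaction, Fa2h ranged from -0.026 to 0.19, Olig1 from -0.00374 to 0.22 and Lhfpl3 from -0.0499 to 0.16. None of these folds was called, and the cause was not tested. Members at an unadjusted p and libraries that do not overlap were counted by choices added after the data were seen. FPKM carries no depth, so precision at low levels, as for Enpp6, is unknown.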
